A study of Mus musculus with 3 samples.

Results

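The 5 thrombospondin genes of the mouse, Thbs1, Thbs2, Thbs3, Thbs4 and Comp, were followed in reprogramming intermediates of tail-tip fibroblasts. They were found by the RefSeq accession printed for each probe, which gave 6 probes for 5 of the 20886 genes named on the array, 2 of them for Thbs3. The family was chosen by its processed signals on these same arrays, taken as log2 values minus the 75th percentile of each array, so its own values are a description and carry no test. RNA was taken on day 8 after 4 factors (Oct4, Sox2, Klf4 and c-Myc) had been introduced into all cells, and was read on 1-colour microarrays. The groups were Old p16-/- (22-month-old mice without p16, the cell cycle inhibitor made from Cdkn2a), Old (22-month-old wild-type mice, old WT here) and Young (2-month-old wild-type mice, young WT here), with 1 array each.

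The submitters ran 2 separate experiments from different donors, but a single array of each group was available. How many mice stand behind an array, the mouse strain and the way the factors were delivered are not given in the sources used here. No difference below has a replicate check, and precision is limited by having 3 arrays. The young WT array also differed from both others in sex-linked transcripts. Ddx3y, a Y-linked helicase gene, had a processed signal of 12.0 on old p16-/- and 9.0 on old WT, both not well above background, against 3949 on young WT. Xist, made from the silenced X chromosome, had 1387 on old p16-/- and 1548 on old WT, against 13.8 on young WT, where it was not well above background. Age and sex of the donors therefore cannot be told apart in the comparisons with young WT. All 11 fibroblast markers were well above background on each array. Of 7 pluripotency markers 4 were above background on each array, with signals of 88.3 to 300.5, and the defining genes Pou5f1, Esrrb and Zfp42 were not on any. Cdkn2a gave 28065 on old p16-/-, 65464 on old WT and 62705 on young WT, and its second probe 2266 on old p16-/- and 5896 on old WT, against 5667 on young WT. Whether these 2 probes lie in the deleted part is not known.

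Thrombospondins are large secreted glycoproteins that bind calcium and sit in the matrix around cells, where they act on cell adhesion, collagen assembly and growth factor activity more than as scaffolds. Thbs1 and Thbs2 form the subgroup with type 1 repeats, through which they bind the receptor Cd36 and limit blood vessel growth, and Thbs1 can activate latent TGF-beta. Thbs3, Thbs4 and Comp (cartilage oligomeric matrix protein) lack those repeats and are known from bone, tendon, cartilage and muscle. Fibroblasts of skin and tendon are among the cells that make them.

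Promoters were available for 3 of the 5 genes in a RefSeq table of build GRCm38.p6, and are shown because Thbs4 and Thbs3 had the same order over the 3 arrays and Thbs2 the opposite one. Each line holds the 250 bases before the start site, 5′ to 3′ on the strand of the gene. They lie at chr13:92794819-92795068 on the minus strand for Thbs4, chr3:89214930-89215179 on the plus strand for Thbs3 and chr17:14694263-14694512 on the minus strand for Thbs2. Capitals mark matches to any of 6 motifs searched on both strands.
Thbs4: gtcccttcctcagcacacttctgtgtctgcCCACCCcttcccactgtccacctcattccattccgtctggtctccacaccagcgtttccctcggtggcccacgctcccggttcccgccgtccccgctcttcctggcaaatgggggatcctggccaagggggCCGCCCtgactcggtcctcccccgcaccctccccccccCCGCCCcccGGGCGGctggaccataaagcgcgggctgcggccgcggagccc
Thbs3: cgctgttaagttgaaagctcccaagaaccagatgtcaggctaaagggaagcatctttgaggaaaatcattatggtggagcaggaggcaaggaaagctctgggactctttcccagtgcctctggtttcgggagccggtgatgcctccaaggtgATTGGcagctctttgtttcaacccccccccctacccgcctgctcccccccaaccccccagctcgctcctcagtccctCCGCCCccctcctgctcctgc
Thbs2: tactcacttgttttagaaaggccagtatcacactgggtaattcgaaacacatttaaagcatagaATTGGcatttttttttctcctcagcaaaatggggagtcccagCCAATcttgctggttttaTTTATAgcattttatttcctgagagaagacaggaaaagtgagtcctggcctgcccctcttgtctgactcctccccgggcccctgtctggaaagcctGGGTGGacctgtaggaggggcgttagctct
The motifs were the TATA box TATAAA, the CCAAT box CCAAT, the GC box GGGCGG of Sp1-type factors, the AP-1 site TGANTCA, the CACC box CCACCC, which Klf4-type factors can bind, and the E-box CACGTG, which Myc can bind. Their matches did not overlap in these windows. GC boxes were found 3 times before Thbs4, 1 time before Thbs3 and 0 times before Thbs2, and 32.7% of 32851 promoter windows of this length hold at least 1. A TATA box was found 1 time before Thbs2, and in 12.4% of all windows. CCAAT boxes were found 2 times before Thbs2 and 1 time before Thbs3 (33.8% of all windows), and a CACC box 1 time each before Thbs4 and Thbs2 (28.1%). AP-1 sites and Myc-type E-boxes, held by 6.75% and 6.02% of all windows, had no match in these 3. The share of G and C was 70.8% before Thbs4, 58.8% before Thbs3 and 46.8% before Thbs2, against a median of 52.4%. These matches are letters in a window, not shown sites of binding.

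Thbs4, a matrix protein of tendon and muscle, differed most among the 5 genes. Its processed signal, a linear brightness after background subtraction, was 311 ± 33.3 on old p16-/- and 1346 ± 135 on old WT, against 11696 ± 1170 on young WT, where the error is Feature Extraction's own estimate for the 1 spot and covers measurement error only. The 3 arrays thus stood in 1 order, with young WT highest, old WT between and old p16-/- lowest, and no 2 of them lay within their spot errors. As log2 level relative to the array's 75th percentile this was -2.72 on old p16-/-, -0.60 on old WT and 2.46 on young WT. The log2 ratio was -3.06 for old over young WT, an 8.34-fold lower signal on old WT. It was -2.11 for p16-/- over old WT (4.33-fold lower on p16-/-) and -5.17 for p16-/- over young WT (36.1-fold lower on p16-/-). The first of these was the lowest of 8719 genes measured above background on both WT arrays and reaching 1000 on 1 or both. For p16-/- over old WT, Thbs4 was number 86 from the low end of 8826 such genes, and in the comparison with young WT number 3 of 8841. In bulk RNA, fewer cells that make Thbs4 and less Thbs4 RNA per cell cannot be told apart.

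The value of Thbs4 on old p16-/- is a dim one. Among the spots of probes that were printed 10 times and mostly not above background, 4.93% on that array were nonetheless called above background. Such stray calls had signals of up to 870, so a spot at 311 lies within their range. On old WT such spots reached 794 and on young WT 694, both under the Thbs4 signals there.

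**Figure D1:**
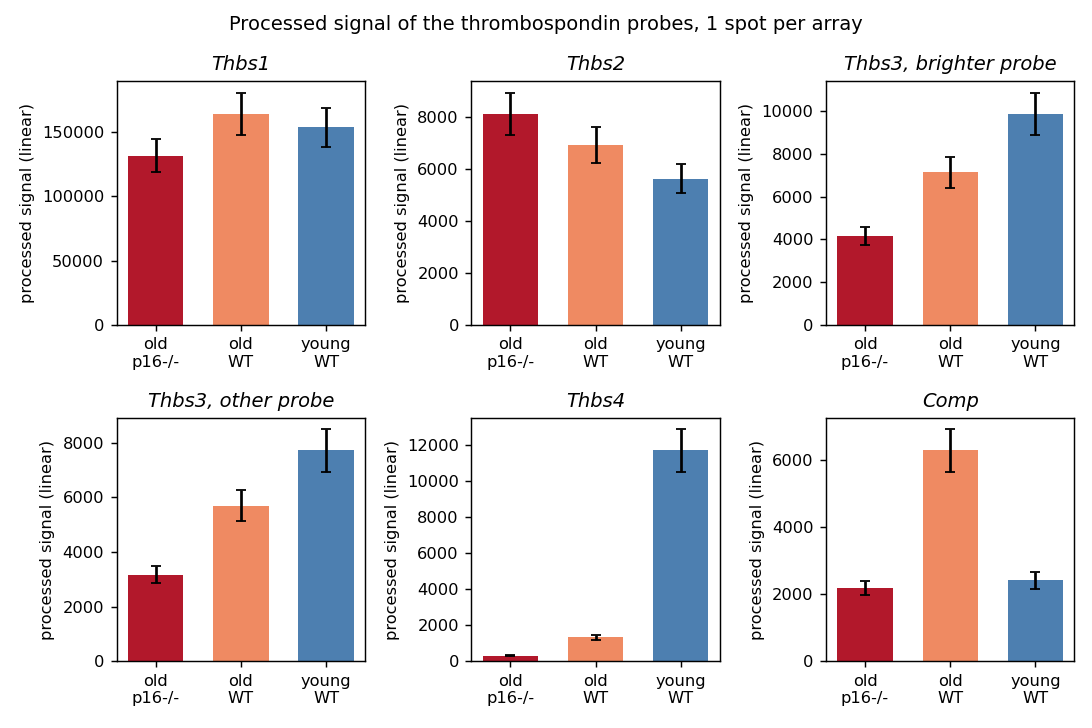
Processed signal (linear) of each thrombospondin probe on the old p16-/-, old WT and young WT arrays, 1 spot per bar, with Feature Extraction's error of the spot as error bar; heights are not comparable between probes. Thbs4 stands at 311, 1346 and 11696 from left to right, Comp is highest on old WT at 6288, and both Thbs3 probes step up toward young WT.

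Comp, a cartilage and tendon matrix protein that binds collagens and matrilins, was highest on the old WT array. Its signal was 2183 ± 219 on old p16-/- and 6288 ± 629 on old WT, against 2414 ± 242 on young WT. The old p16-/- and young WT spots lay within their errors of each other, and both lay below old WT. The log2 ratio was 1.44 for old over young WT, a 2.71-fold higher signal on old WT, and -1.53 for p16-/- over old WT, a 2.88-fold lower signal on p16-/-. Both ratios use the old WT array, so they are not independent of each other. For p16-/- over young WT, which leaves that array out, the ratio was -0.09 with a spot error of 0.20. Comp was number 47 from the high end of 8719 genes in old over young WT and number 181 from the low end of 8826 in p16-/- over old WT.

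Thbs3, a member of the same subgroup known from bone and growth plate in the mouse, was read by 2 probes. The brighter had signals of 4157 ± 416 on old p16-/- and 7136 ± 714 on old WT, against 9886 ± 989 on young WT. The other had 3165 ± 317 on old p16-/- and 5688 ± 569 on old WT, against 7712 ± 771 on young WT. Both probes gave the same order, highest on young WT and lowest on old p16-/-. The log2 ratios were -0.41 and -0.38 for old over young WT, under 2-fold, and -0.78 and -0.85 for p16-/- over old WT, also under 2-fold. For p16-/- over young WT they were -1.19 and -1.23, a 2.28-fold and a 2.34-fold lower signal on p16-/-. The probes share RNA and array, so the second checks the probe and not the animal.

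Thbs1, the activator of latent TGF-beta, had signals of 131849.6 ± 13185 on old p16-/- and 164455 ± 16446 on old WT, against 153773 ± 15377 on young WT. None of its spots was saturated, and the 3 arrays lay within 1.25-fold of each other. Thbs1 had a log2 ratio of 0.16 for old over young WT, within the spot error of 0.20, and -0.32 for p16-/- over old WT. It was -0.16 for p16-/- over young WT, again within the spot error.

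Thbs2, the other member with type 1 repeats and a regulator of collagen fibril assembly, had signals of 8142 ± 814 on old p16-/- and 6949.5 ± 695 on old WT, against 5637 ± 564 on young WT. Its order was the reverse of that of Thbs3 and Thbs4. Its log2 ratio was 0.36 for old over young WT, 0.23 for p16-/- over old WT and 0.59 for p16-/- over young WT, a 1.5-fold higher signal on p16-/-.

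Counted together, 2 of the 5 genes were at least 2-fold apart between old WT and young WT, Comp higher and Thbs4 lower, where 6.41% of 14602 genes counted were apart, 3.07% higher and 3.34% lower. Between old p16-/- and old WT 2 of 5 were at least 2-fold lower on p16-/-, Thbs4 and Comp, where 6.72% of 14755 genes were lower and 6.09% higher by that much. Between old p16-/- and young WT 2 of 5 were at least 2-fold lower, Thbs4 and Thbs3, where 7.12% of 14348 genes were lower and 6.54% higher. Because the family was chosen with these values known, the counts are not read against those shares. The median log2 ratio of the 5 was 0.16 for old over young WT, -0.78 for p16-/- over old WT and -0.16 for p16-/- over young WT, beside medians over all genes counted of 0.00, 0.02 and 0.03. The family thus held genes of opposite direction between the WT ages. On p16-/- 4 of the 5 were below old WT, Thbs1 least at -0.32, with Thbs2 above it. Of all genes counted 46.4% were below 0 there, and for the same reason the count is not read against that share.

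**Figure D2:**
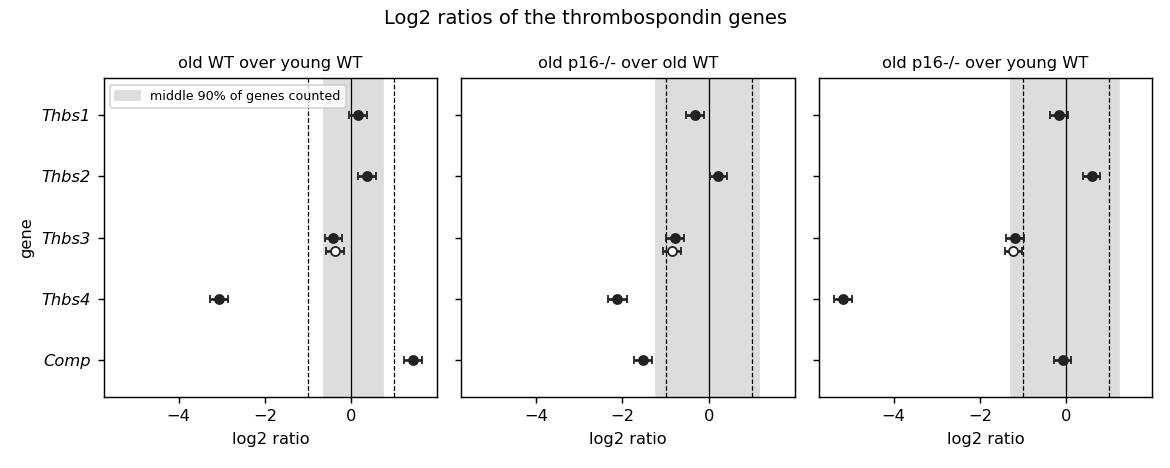
Log2 ratio of each thrombospondin gene in the 3 comparisons (filled, brightest probe; open, the other Thbs3 probe), with the spot error of the ratio; dashed lines mark 2-fold and the grey band the middle 90% of genes counted. Thbs4 lies left of the band in all 3 panels, at -3.06, -2.11 and -5.17, and Comp lies right of it for old over young WT and left of it for p16-/- over old WT.

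For each gene the 3 genes with the most similar course were taken from 8916 genes detected on all 3 arrays that reached a signal of 1000 on 1 or more, by the Euclidean distance between centred log2 levels over the 3 arrays. With 3 points, many genes can look alike. Thbs1 had 1770 genes within a distance of 0.2, with Otub2, a deubiquitinase gene, nearest at 0.0021, 1110051M20Rik at 0.0064 and Ahcyl2 at 0.010. Thbs2 had 221, with the kinase gene Cdk14 (0.024), the peptide-amidating enzyme gene Pam (0.026) and the endocytic gene Ehd4 (0.027) nearest, although a second probe of Cdk14 gave 0.70 for p16-/- over old WT where the brighter gave 0.19. Thbs3 had 56, with the orphan receptor gene Gpr176 at 0.041, the glutathione transferase gene Gstm2 at 0.046 and Rassf2 at 0.056.

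Thbs4 had 0 genes within 0.2. The nearest were the sphingomyelinase gene Smpd3 at a distance of 0.66, the zinc finger gene Tshz2 at 0.81 and Fcer1g, the common chain of Fc receptors in myeloid cells, at 0.85. Smpd3 had signals of 76.3 on old p16-/- and 223 on old WT, against 1514 on young WT. Fcer1g had 131 on old p16-/- and 515 on old WT, against 2294 on young WT. Tshz2 had 69.6 on old p16-/- and 440 on old WT, against 1726 on young WT. On old p16-/- and old WT the signals of Smpd3, Tshz2 and Fcer1g lay in the range of stray calls. A second Tshz2 probe was not above background on either of these old arrays. Comp had 6 genes within 0.2, and the nearest were the ADP-ribosyltransferase gene Parp10 (0.059), the guanylate-binding protein gene Gbp2 (0.10) and the pantetheinase gene Vnn1 (0.12). Parp10 had signals of 3187 on old p16-/- and 8729 on old WT, against 3354 on young WT, so it too was highest on old WT.

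In all, 8 of 9 macrophage markers stood in the same order over the arrays as Thbs4, a count with no share of all genes in that order beside it. Of all genes counted, 50% were below 0 for old over young WT and 46.4% for p16-/- over old WT. Of the 9 (Adgre1, Csf1r, Ptprc, Lyz2, Tyrobp, C1qa, C1qb, C1qc and Ctss), 2 were well above background on old p16-/- and 8 on old WT, against 8 on young WT. Their summed signal was 1731 on old p16-/- and 5612 on old WT, against 20811 on young WT. For old over young WT all 8 counted markers were at least 2-fold lower on old WT, where 3.34% of all genes counted were. Their median log2 ratio was -2.25, and Adgre1 stood at -2.83. On old WT the signals of Adgre1 (155), Lyz2 (422), Tyrobp (336), C1qa (183), C1qb (216) and C1qc (282) lay in the range of stray calls. Csf1r was at -1.19 by its brightest probe, -1.18 by a second and -0.13 by another. That last probe was at 0.26 for p16-/- over old WT. On old p16-/- the defining markers Adgre1, Lyz2, Tyrobp, C1qa, C1qb, C1qc and Ctss were not well above background. Thbs4 had a signal of 311 on that array, within the range of stray calls there. The platelet gene Pf4 had 9.5 on old p16-/-, not well above background, and 115 on old WT, against 649 on young WT. Of the 11 fibroblast markers 8 lay within 2-fold for p16-/- over old WT, as did 87.2% of all genes counted. Pdgfra was higher at 1.60 and Fap too, with 1668 on old p16-/- and 587 on old WT, and Thy1 was lower, at -3.99. All 11 lay within 2-fold for old over young WT, as did 93.6% of all genes counted. The part of these cells in the Thbs4 result was not tested.

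**Figure D3:**
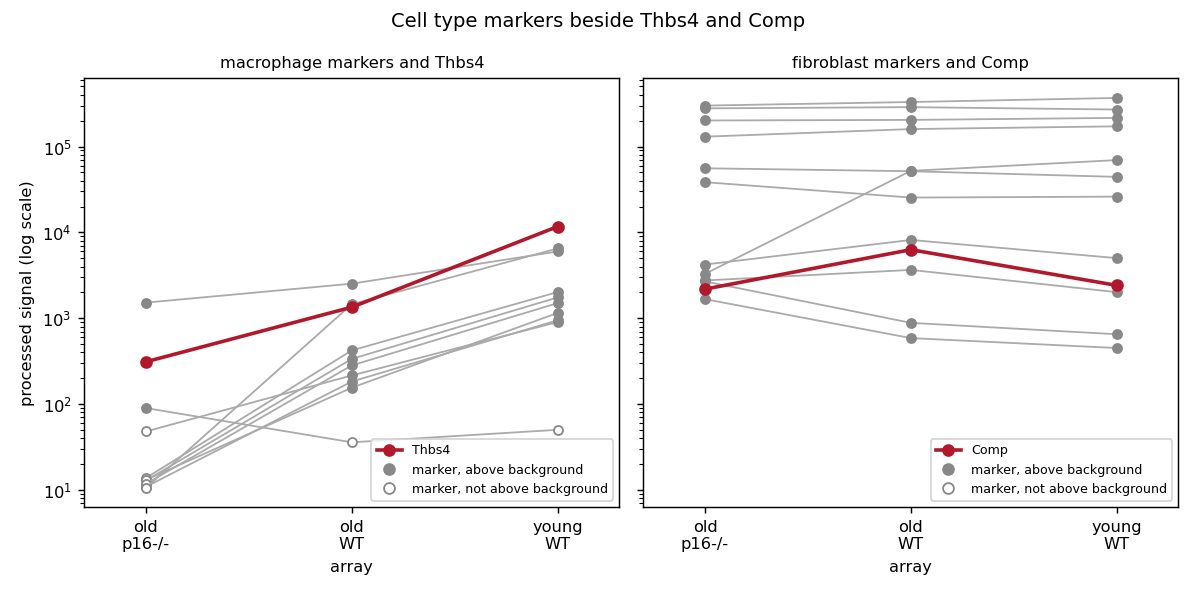
Processed signal (log scale) of 9 macrophage markers with Thbs4, and of 11 fibroblast markers with Comp, on the old p16-/-, old WT and young WT arrays; filled points are well above background and open points are not, and heights are not comparable between probes. Thbs4 and 8 of the macrophage markers step up from left to right, and 7 of the 9 markers are open on old p16-/-.

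Markers of the tissues where Thbs4 and Comp are best known took several courses. In the tendon list the transcription factor Scx had signals of 17594 on old p16-/- and 14713 on old WT, against 10119 on young WT. Mkx and Fmod lay close together on the 3 arrays, at 0.10 and -0.03 for old over young WT and at -0.16 and 0.01 for p16-/- over old WT. Tnmd, a late tendon gene, had 26.7 on old p16-/-, not well above background, and 173 on old WT, against 124 on young WT. It was thus highest on old WT, as Comp was, but both WT signals lay in the range of stray calls. Kera did not exceed background on any of the 3. In the cartilage list 6 of 11 genes were above background on old p16-/- and 7 on old WT, against 4 on young WT. The genes that differ between these counts were dim, with Sox6 at 70.6, Matn1 at 74.3 and Col9a1 at 44.9 on old WT. Acan had 218 and Col11a2 71.6 on old p16-/-, and all of these lay in the range of stray calls. The summed signal was 70617 on old p16-/- and 32151 on old WT, against 29154 on young WT. Sox5 supplied most of it on both WT arrays, with 25751 on old WT and 25633 on young WT, beside 25618 on old p16-/-. A second Sox5 probe was not above background on either WT array. The cartilage collagen gene Col2a1 supplied most of the sum on p16-/-, with 42066.5 on old p16-/- and 4376 on old WT, against 2580.2 on young WT. Hapln1, the cartilage link protein gene, had 1986 on old p16-/- and 1166 on old WT, against 262 on young WT. Sox9, the cartilage regulator, lay within 2-fold throughout, at 0.35 for old over young WT and -0.05 for p16-/- over old WT. Its signals of 528 on old p16-/-, 545 on old WT and 446 on young WT lay in the range of stray calls.

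Markers of other cells were also summed. The 8 smooth muscle and pericyte markers gave 149019 on old p16-/- and 403257 on old WT, against 357161 on young WT. For p16-/- over old WT 5 of the 7 counted were below 0, as were 46.4% of all genes counted. Acta2 was at -1.97, Tagln at -1.75 and Cnn1 at -1.78, whereas Cspg4 and Mcam were above 0, at 0.60 and 0.35. The 6 platelet markers gave 12586 on old p16-/- and 32324 on old WT, against 22400 on young WT, highest where Comp was highest. Ppbp supplied most of each sum, with 10641 on old p16-/- and 30057 on old WT, against 19446 on young WT. The defining genes Gp1ba and Gp9 were not above background on any array. The 4 Schwann cell markers gave 5572 on old p16-/- and 1916 on old WT, against 969 on young WT. Of 5 endothelial markers 3 were above background on each array. Their sum of 6535 on old p16-/- and 6515 on old WT, against 6526 on young WT, was nearly all 1 probe of Kdr, at 0.14 for p16-/- over young WT, where a second Kdr probe was at -1.24 and Tek at -1.20. Their part in the values of Comp and Thbs4 was not tested.

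The genes through which thrombospondins are known to act were taken as 7 lists that name 120 genes, of which 117 were on the array. Together 10 of 104 counted (9.62%) were at least 2-fold apart for old over young WT, 25 of 104 (24%) for p16-/- over old WT and 25 of 100 (25%) for p16-/- over young WT. Over all genes counted the shares were 6.41%, 12.8% and 13.7%. As among all genes, more list genes were apart in the comparisons that use the p16-/- array, and they lay on both sides.

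Most receptors and co-receptors lay close together on the 3 arrays. Their median was 0.06 over 19 genes for old over young WT, 0.00 over 19 for p16-/- over old WT and 0.05 over 18 for p16-/- over young WT. Cd47, a widely expressed receptor of Thbs1, had 19844 on old p16-/- and 17849 on old WT, against 17835 on young WT. Lrp1, which clears Thbs2 with its bound proteases, stood at 0.12 for old over young WT and 0.00 for p16-/- over old WT. Calr, which acts with Lrp1, was at 0.09 and -0.20, and Cacna2d1, the calcium channel subunit that binds thrombospondins in brain, at 0.11 and 0.12. Among integrin subunits, Itgb3 was at -0.28 and -0.36, Itgb1 at 0.15 and -0.39, Itgav at -0.13 and 0.19 and Itga3 at 0.40 and 0.20 in the same 2 comparisons. None of these 8 genes was 2-fold apart, and the second probes of Itgav, Itgb3 and Cacna2d1 gave -0.30, 0.11 and -0.09 for p16-/- over old WT, of the other sign.

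Cd36, the receptor for the type 1 repeats, was dim, with 125 on old p16-/- and 55.0 on old WT, against 172 on young WT, so its ratios of -1.59 for old over young WT and 1.19 for p16-/- over old WT rest on signals in the range of stray calls. Itga5, a fibronectin receptor subunit, had 1339 on old p16-/- and 3065 on old WT, against 3122 on young WT, a ratio of -1.20 for p16-/- over old WT. Itga4, a subunit that can bind Thbs1, had 61.5 on old p16-/-, not well above background, and 1339 on old WT, against 1357.5 on young WT. It was lower on p16-/- than on old WT by a bound of -4.45, and by a bound of -1.45 with a second probe.

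**Figure D4:**
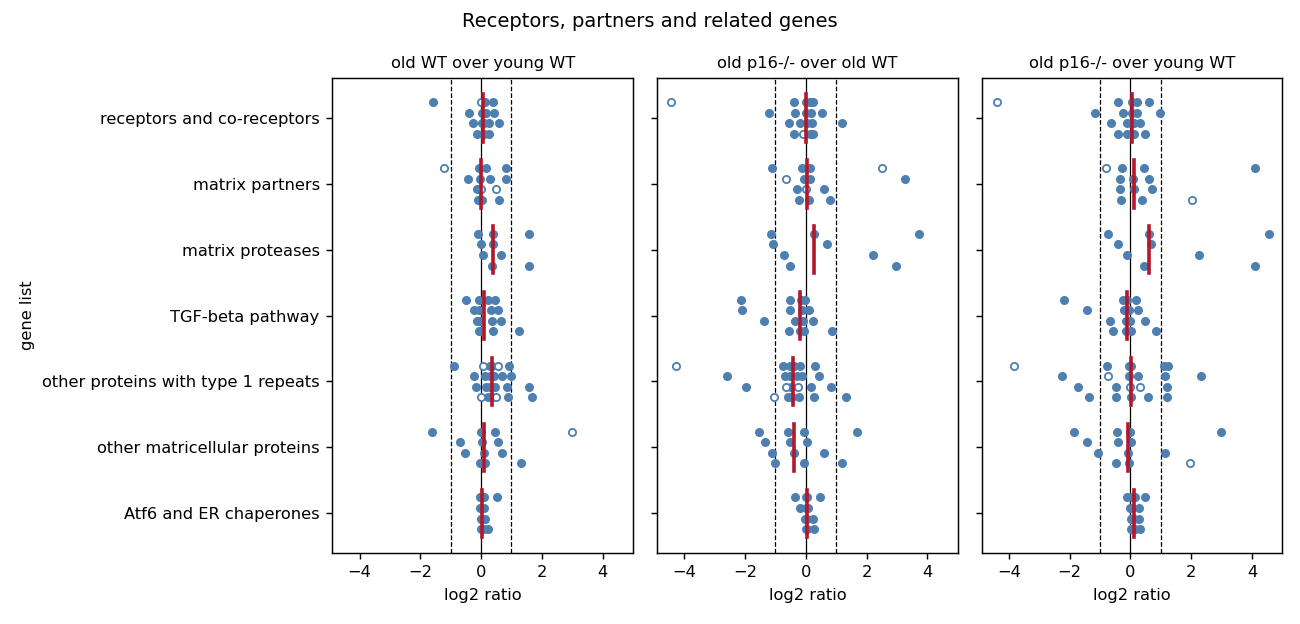
Log2 ratio of each counted gene of 7 lists in the 3 comparisons; open points are bounds, red bars list medians and dashed lines 2-fold. The chaperone list stays within 2-fold in all panels, and the proteases, type 1 repeat proteins and matricellular proteins spread to both sides on p16-/-.

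Matrix partners of the family differed at a few genes. On p16-/- 2 of 14 were at least 2-fold higher and 1 lower than on old WT (median 0.06), where 6.09% of all genes were higher and 6.72% lower. Col2a1, a partner of Comp in cartilage, was at 3.26, and Acan, the cartilage proteoglycan, was higher by a bound of 2.52. Acan had 218 on old p16-/-, in the range of stray calls. Col5a1, which nucleates collagen fibrils, was at -1.11 there and at 0.80 for old over young WT. The abundant partners Col1a2 and Fn1 were at 0.15 and 0.59 for old over young WT and at -0.05 and -0.13 for p16-/- over old WT. For old over young WT 1 of 14 was at least 2-fold apart, Col9a3 by a bound of -1.21, where 6.41% of all genes were apart.

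The proteases that cut or are bound by thrombospondins were at least 2-fold higher on old p16-/- than on old WT in 3 of 9 cases and at least 2-fold lower in 2. Of all genes counted 6.09% were higher and 6.72% lower by that much. Mmp13, a collagenase, had 21302 on old p16-/- and 2724 on old WT, against 944 on young WT. Mmp3, stromelysin, had 27857.5 on old p16-/- and 6032.5 on old WT, against 6022 on young WT. Mmp2, the gelatinase that Thbs2 brings to Lrp1, had 4869 on old p16-/- and 10794 on old WT, against 3751 on young WT, with ratios of 1.58 for old over young WT and -1.15 for p16-/- over old WT. Adamts4, an aggrecanase that can cut Comp, was at 0.66 and -1.06. Adamts12, a further Comp-cutting enzyme, is among the 3 higher by its brighter probe alone, with 531 on old p16-/- and 39.9 on old WT, the second not well above background. Its other probe went the other way, lower on p16-/- by a bound of -0.72, so no fold is given for it. Adamts1, which cuts Thbs1 and Thbs2, lay within 2-fold, at 0.39 and 0.28.

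Of 16 TGF-beta pathway genes, with a median of -0.18, 13 were below 0 for p16-/- over old WT, as were 46.4% of all genes counted. Of the 16, 3 were at least 2-fold lower, where 6.72% of all genes were. The ligand gene Tgfb3 had 6917 on old p16-/- and 29714 on old WT, against 19517 on young WT. Ltbp2, a latent TGF-beta binding protein gene, was highest on old WT, with 58755 on old p16-/- and 151843 on old WT, against 66986 on young WT. Its ratios of 1.24 and -1.37 had the signs of those of Comp. For old over young WT the list had a median of 0.09, and Ltbp2 was the 1 gene of 16 at least 2-fold apart, where 6.41% of all genes were. Ccn2 was at 0.47 and -0.52 and Ltbp3 was at -0.12 for p16-/- over old WT.

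Other genes whose proteins carry type 1 repeats had a median of 0.36 over 24 genes for old over young WT. Of these 20 were above 0, as were 47.4% of all genes counted. At least 2-fold higher were 2 of them, where 3.07% of all genes were. The Wnt-linked matricellular gene Ccn5 was at 1.68 and the netrin receptor gene Unc5c at 1.57. Unc5c had 272 on old WT against 95.4 on young WT, both in the range of stray calls. On p16-/- 18 of 24 were below old WT, as were 46.4% of all genes counted. Of the 24, 4 were at least 2-fold lower, where 6.72% of all genes were. The median was -0.41, and -0.26 with no filter on background. Adamtsl1 was at -2.59 (a bound of -0.51 by a second probe), Thsd7a at -1.95 (-2.18 by a second probe and a bound of -1.07 by another) and Unc5a at a bound of -4.26. Ccn3 was the 1 gene at least 2-fold higher, at 1.34, where 6.09% of all genes were. It had 612 on old p16-/- and 242 on old WT, both in the range of stray calls. Against young WT 6 of 22 on p16-/- were at least 2-fold higher and 4 lower, where 6.54% of all genes were higher and 7.12% lower. Complement properdin, Cfp, stood at -1.36.

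Other matricellular genes spread to both sides. On p16-/- 2 of 13 were at least 2-fold higher and 4 lower than on old WT, where 6.09% of all genes were higher and 6.72% lower. Smoc1 was at 1.69, Sparcl1 at 1.19, Tnc at -1.53, Efemp1 at -1.33, Smoc2 at -1.11 and Tnn at -1.03. Sparcl1 and Tnn had signals in the range of stray calls on both of these arrays, as Smoc1 had on old WT. For old over young WT Smoc1 was at 1.30, Sparcl1 at -1.60 and Tnn, with signals of 625.5 on old WT against 81.5 on young WT, was above background on old WT alone among these 2. Those 3 rest on signals under 1000, with at least 1 of the arrays in the range of stray calls. At a signal of at least 1000, 0 genes of the list were at least 2-fold apart for old over young WT, where 1.77% of all genes were. Efemp1 had 5203 on old p16-/- and 13078 on old WT, against 19679 on young WT, the same order as Thbs3 and Thbs4. The abundant genes Sparc and Spp1 (osteopontin) lay within 2-fold, at 0.04 and 0.54 for old over young WT and -0.04 and 0.60 for p16-/- over old WT, although a second probe of Sparc gave -1.14 for p16-/- over old WT. The gene for Atf6, a stress sensor that Thbs4 is known to bind in mouse heart, was at 0.01 and 0.46. In its chaperone list 0 of 13 genes were 2-fold apart in any of the 3 comparisons, where 6.41%, 12.8% and 13.7% of all genes were.

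The genes next to each family member on the chromosome were also read. Of 20 neighbours, 19 were on the array. For old over young WT 16 of 17 counted lay within 2-fold, as did 93.6% of all genes counted, and for p16-/- over old WT 13 of 17, where 87.2% of all genes did. Mtx3, next to Thbs4, was at 0.07 for old over young WT and -0.11 for p16-/- over old WT, and Serinc5, on its other side, at 0.13 and 0.18. Cmya5, beyond Mtx3, had 873 on old p16-/- and 146 on old WT, against 208 on young WT, the opposite direction to Thbs4 on p16-/-. Mtx1, whose start lies next to that of Thbs3 in the mouse, was at -0.05 and 0.13, and Upf1 and Crtc1 beside Comp were at -0.02 and 0.12 for old over young WT and at 0.26 and -0.27 for p16-/- over old WT. Smoc2, next to Thbs2, was lower on p16-/- than on old WT, at -1.11, while Thbs2 was at 0.23. Gpr176, near Thbs1, was at -0.81 there, with Thbs1 at -0.32.

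**Figure D5:**
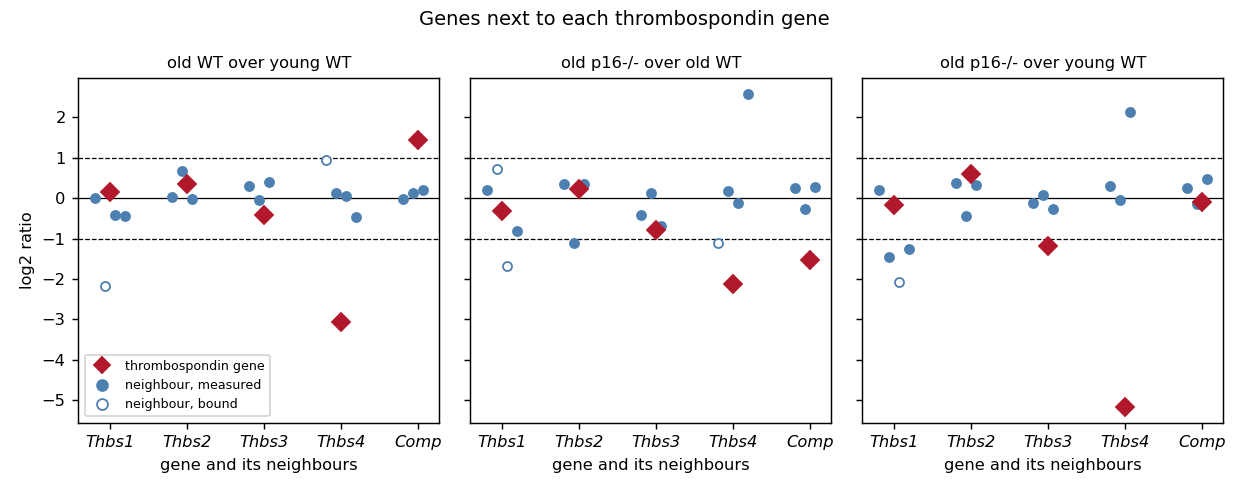
Log2 ratio of each thrombospondin gene (diamond) and of up to 4 neighbouring genes (circles, open where the ratio is a bound) in the 3 comparisons; dashed lines mark 2-fold. The measured neighbours of Thbs4 and Comp for old over young WT lie within 2-fold while the genes themselves stand at -3.06 and 1.44.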

How the data were processed

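Gene expression was measured in 3 samples with 1 array each. The deposited scanner files hold linear intensities made by the authors with Agilent Feature Extraction 11.5.1.1, background-subtracted and spatially detrended but not normalized between arrays, per the file headers; the error of a spot and the 0 or 1 marks for background, saturation and outliers are other values of the deposited files. The 3 arrays lay on 1 slide read in 1 scan. The deposited value table equalled the processed signal (relative difference under 0.0001) at all 39030 singly spotted probes of every array.

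Control spots (1377) were left out. Outlier spots (246 to 267 per array) were too, except at probes with outlier spots alone, which kept them. Log2 signals were averaged per probe and the 75th percentile of each array was taken off (Python 3.11.15). Of 39429 probes, 27508 were named through a RefSeq table of GRCm38.p6. Probes were designed on mm9, so no probe coordinates are given. The promoter windows and the order of neighbours are those of GRCm38.p6. The brightest probe stood for a gene, which counted as above background if any of its probes did. A ratio with only 1 array above background is a bound, set against the lowest level above background, or the dim level itself if higher (signals of 46.9 on old p16-/- and 35.7 on old WT, against 55.4 on young WT). Between 57.4% and 61.6% of spots were well above background. Replicate spots of 399 probes had a median SD of 0.055 to 0.057 log2 units.

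With 1 array per group no test was run, and genes are described by size, at least 2-fold. The ratio and bound rules were tested on simulated data. The members, lists and the rule for named genes were chosen with earlier results of these data known; that rule takes all members, fixed receptors, up to 6 measured and 3 bounded genes per list at least 2-fold apart with 2 bright genes within 2-fold, neighbours and nearest genes. Normexp correction used limma 3.58.1 with the median signals, since no mean signal column was found in the files, a choice made after seeing the data. 1 gene of the lists is not reported by name here.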

Additional observations from a re-analysis of the deposited data

How the results depend on the processing

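No paired analysis was possible because each group has 1 array. Slide as a block was not run, as the 3 arrays share 1 slide. All 150 values of the 5 genes under 10 alternatives (normexp, quantile, median and detected-probe scaling, 3 filters, mean of probes, outlier spots kept, deposited value table) stayed on their side of 2-fold, and none reversed. Thbs4 moved by more than the replicate-spot SD of a ratio (0.081) under normexp, to -2.95 for old over young WT, -1.81 for p16-/- over old WT and -4.77 for p16-/- over young WT; Thbs1 for p16-/- over old WT moved to -0.42 under quantile normalization. Counts of all genes at least 2-fold apart depended on dim probes. For old over young WT 936 became 613 with normexp, 473 with both arrays above background, 1746 with no filter and 154 at a signal of at least 1000. For p16-/- over old WT 1891 became 1229, 2975 and 612 under those 3 filters, and for p16-/- over young WT 1959 became 1221, 3010 and 678. At a signal of at least 1000, 103 genes were higher and 51 lower for old over young WT (449 and 487 without that filter), and 1.77%, 6.92% and 7.64% of genes were at least 2-fold apart in the 3 comparisons. List genes at least 2-fold apart for old over young WT numbered 16 with no filter and 4 at a signal of at least 1000, against 10. Of single list genes 15 values dropped under 2-fold, 11 of them with normexp, among them Smoc1 (0.81) and Cd36 (-0.97) for old over young WT and Adamts4 (-0.93), Sparcl1 (0.96), Cd36 (0.62) and Tnn (-0.81) for p16-/- over old WT. Another 11 passed 2-fold, 9 of them with no filter on background, 1 with the mean of probes (Itga4, 1.71 for old over young WT) and 1 with detected-probe scaling (Ccn3, 1.01). None reversed. The filters change which genes are tested; the cause of the normexp and quantile shifts was not tested.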
